A study of Mus musculus with 8 samples.

Results

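The genes described here encode the subunits of the ionotropic glutamate receptors of the AMPA and NMDA types. They were chosen by gene symbol from the array annotation, 1 row per gene: Gria1, Gria2, Gria3 and Gria4 for the AMPA receptor, and Grin1, Grin2a, Grin2b, Grin2c and Grin2d for the NMDA receptor. The annotation used here named a row for 8 of these 9 genes, out of 19505 genes named in all. Grin1, the gene of the obligatory NMDA receptor subunit, was not analysed here, so every NMDA value below is for the GluN2 subunit genes. Each of the 8 genes had 1 row.

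Clariom S arrays were run on brain RNA from male ICR mice, an outbred strain, which were bought at 8 weeks of age, acclimatized for 1 week and treated for 7 days. There were 4 groups with 2 arrays each: water with the tail suspension test (TST), rosemary extract (RE) at a low dose with TST, RE at a high dose with TST, and water without TST. The TST suspends a mouse by the tail and scores how long it stays still, and it acts as an acute stressor. RE was given by mouth in the drinking water, at 10 mg/kg for the low dose; the sample titles give 100 mg/kg for the high dose, where the source name gives 50 mg/kg. Water with TST is labelled negative control and water without TST positive control in the agent field, and the groups here follow the titles. The labels assign 7 mice to a group and do not say whether an array holds 1 mouse or a pool, so a p-value here speaks only of the spread among the RNA samples hybridized.

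AMPA receptors carry most fast excitatory transmission in the brain, and are tetramers whose ion selectivity is set largely by the GluA2 subunit, the product of Gria2. NMDA receptors open only when glutamate and a co-agonist are bound and the membrane is depolarised, and they pass the calcium that triggers synaptic plasticity. Their GluN2 subunit differs between regions: GluN2A and GluN2B are the usual partners in hippocampus and cortex, GluN2C is the characteristic subunit of mature cerebellar granule cells, and GluN2D is found mainly in diencephalon, brainstem and some interneurons.

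The tissue is given as limbic system in one label field and as hippocampus in another, and 2 of the 8 arrays had high levels of cerebellar markers. Gabra6, a GABA-A receptor subunit gene of cerebellar granule cells, was at a log2 signal of 16.37 on water with TST replicate 2 and 14.31 on water without TST replicate 1, and between 4.69 and 8.42 on the other 6 arrays. All 10 measured granule cell markers, of 11 listed, were highest on water with TST replicate 2. The mean of those 10 lay between 7.313 and 12.397 on the arrays of water with TST, between 7.218 and 7.266 with low-dose RE, between 7.191 and 7.692 with high-dose RE, and between 8.17 and 10.74 in water without TST. Of 8 measured forebrain excitatory neuron markers, 7 were lowest on water with TST replicate 2, and the remaining 1 was highest there. Tbr1 was at 9.25 on that array against 12.78 to 13.65 on the other 7 arrays. Gabra6 and Tbr1 were picked from their lists after their values were seen. Results that rest on these 2 arrays are given with and without them, except for the median differences of a gene list. The part that these marker levels play in any difference below was not tested. In bulk RNA, fewer cells of a type and less RNA per cell cannot be told apart.

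Signals are on the log2 scale as the authors deposited them, and the means ± SD over all 8 arrays were 15.73 ± 0.35 for Gria2, 14.68 ± 0.50 for Gria3, 14.68 ± 0.27 for Gria1 and 13.004 ± 0.915 for Gria4 among the AMPA subunit genes. Among the NMDA subunit genes they were 14.43 ± 1.10 for Grin2b, 13.52 ± 0.54 for Grin2a, 9.45 ± 1.25 for Grin2c and 7.81 ± 0.35 for Grin2d. Probes of different genes bind with different strength, so these signals do not rank the transcripts. Comparisons below are of 1 gene between arrays, or of how a difference between genes moved from array to array.

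Grin2c, the cerebellar subunit gene, varied most of the 8. It read 8.89 on replicate 1 and 12.31 on replicate 2 of water with TST, 8.64 and 8.84 with low-dose RE, 8.91 and 9.01 with high-dose RE, and 10.20 and 8.82 in water without TST. The 2 arrays with high cerebellar markers were thus the 2 highest, and the other 6 lay within 0.37 of each other. Over the 8 arrays the range was 3.67, larger than that of 99.4% of all rows, and over those 6 arrays only 11.5% of rows had a smaller one.

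Gria4, an AMPA subunit gene that is prominent in the cerebellum, had the profile closest to Grin2c among the other 7 genes. Its signals were 12.54 and 14.97 in water with TST, 12.57 and 12.65 with low-dose RE, 12.47 and 12.42 with high-dose RE, and 13.82 and 12.59 in water without TST. Again the 2 arrays with high cerebellar markers stood above the other 6, whose range was 0.23. The root mean square difference between the centred profiles of Grin2c and Gria4 was 0.369, against 1.11 to 2.18 between Grin2c and each of the other 6 genes.

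The RefSeq promoters of the pair that was high on the same 2 arrays are shown with that of Gria2, which was low on water with TST replicate 2, to set side by side the sequences of genes that differed in opposite directions. The RefSeq table (GRCm38.p6) held a promoter for 5 of the 9 genes, taken from 250 bases before to 50 bases after the gene start. Capitals mark the GC box, GGGCGG on either strand.
Grin2c, chr11:115267194-115267493, minus strand: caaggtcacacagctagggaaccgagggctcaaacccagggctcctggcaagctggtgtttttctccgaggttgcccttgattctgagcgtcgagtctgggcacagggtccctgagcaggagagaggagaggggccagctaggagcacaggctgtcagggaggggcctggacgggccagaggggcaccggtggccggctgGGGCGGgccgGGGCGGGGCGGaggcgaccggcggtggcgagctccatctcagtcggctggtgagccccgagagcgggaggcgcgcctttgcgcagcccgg
Gria4, chr9:4796185-4796484, minus strand: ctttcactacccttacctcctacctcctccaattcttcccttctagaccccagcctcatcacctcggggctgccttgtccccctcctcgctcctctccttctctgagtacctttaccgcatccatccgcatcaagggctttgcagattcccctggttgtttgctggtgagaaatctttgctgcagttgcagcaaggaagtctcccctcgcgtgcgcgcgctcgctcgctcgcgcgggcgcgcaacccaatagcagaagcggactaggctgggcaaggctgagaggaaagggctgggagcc
Gria2, chr3:80802786-80803085, minus strand: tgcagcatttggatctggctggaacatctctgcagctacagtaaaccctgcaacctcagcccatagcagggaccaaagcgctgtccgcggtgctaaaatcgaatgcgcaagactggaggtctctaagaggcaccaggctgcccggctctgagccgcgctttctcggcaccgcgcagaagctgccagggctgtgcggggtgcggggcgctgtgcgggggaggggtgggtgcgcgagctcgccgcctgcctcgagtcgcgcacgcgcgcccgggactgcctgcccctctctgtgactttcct
The Grin2c window held 3 GC box matches, of which the last 2 share 1 base, and the Gria4 and Gria2 windows held 0. Of the 32851 promoters in the table, 35.7% held at least 1. The G and C content was 70% for Grin2c, 59.7% for Gria4 and 65.7% for Gria2, against a median of 52.7% over the table. There were 22 CpG dinucleotides in the Grin2c window, 17 in that of Gria4 and 26 in that of Gria2, and the median of the table was 7. A match is a description of the letters only, and the pair that was high together did not share the GC box in these windows.

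Grin2b, the gene of the GluN2B subunit of forebrain NMDA receptors, went the other way on the same array. Its signals were 15.05 and 11.75 in water with TST, 15.07 and 14.97 with low-dose RE, 14.58 and 14.88 with high-dose RE, and 14.47 and 14.64 in water without TST. Water with TST replicate 2 lay 3.06 below the mean of the other 7 arrays, which spanned 14.47 to 15.07. Water without TST replicate 1, the other array with high cerebellar markers, was the lowest of those 7, at 14.47, with high-dose RE replicate 1 next at 14.58.

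Grin2a, the gene of the GluN2A subunit that joins NMDA receptors as synapses mature, read 13.95 and 12.51 in water with TST. It read 13.90 and 13.87 with low-dose RE, 13.78 and 13.83 with high-dose RE, and 13.39 and 12.90 in water without TST. Both arrays of water without TST and water with TST replicate 2 were low, and the other 5 lay between 13.78 and 13.95. Grin2a kept the widest spread of the 8 genes without the 2 arrays with high cerebellar markers: its range over the other 6 was 1.05, above that of 82.7% of rows, because water without TST replicate 2 was also low. That array was the highest in striatal projection neuron markers, with a mean of 7 markers 1.89 above the 8-array mean, against at most 0.178 on any other array.

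Grin2d, the gene of the GluN2D subunit, was at 7.76 and 8.27 in water with TST, 7.5 and 7.57 with low-dose RE, 8.27 and 7.98 with high-dose RE, and 7.29 and 7.82 in water without TST. Its lowest value was on one of the 2 arrays with high cerebellar markers and its highest on the other, level with high-dose RE replicate 1. No detection call comes with the deposited values.

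Gria1, whose product GluA1 is inserted into synapses during potentiation, read 14.99 and 14.18 in water with TST, 14.73 and 14.93 with low-dose RE, 14.80 and 14.72 with high-dose RE, and 14.38 and 14.72 in water without TST. Its range of 0.81 was below the median range of all rows, 0.88. Gria2 read 16.02 and 14.90 in water with TST, 15.96 and 15.82 with low-dose RE, 15.71 and 15.81 with high-dose RE, and 15.78 and 15.82 in water without TST. Gria3, whose product GluA3 pairs with GluA2 at many forebrain synapses, read 15.14 and 13.51 in water with TST, 14.99 and 14.78 with low-dose RE, 14.80 and 14.92 with high-dose RE, and 14.56 and 14.76 in water without TST. All 3 of these AMPA genes were lowest on water with TST replicate 2 and highest on replicate 1 of the same group. The 2 arrays of water with TST thus enclosed every other array for Gria1, Gria2 and Gria3, with gaps of 0.81, 1.12 and 1.63.

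**Figure D1:**
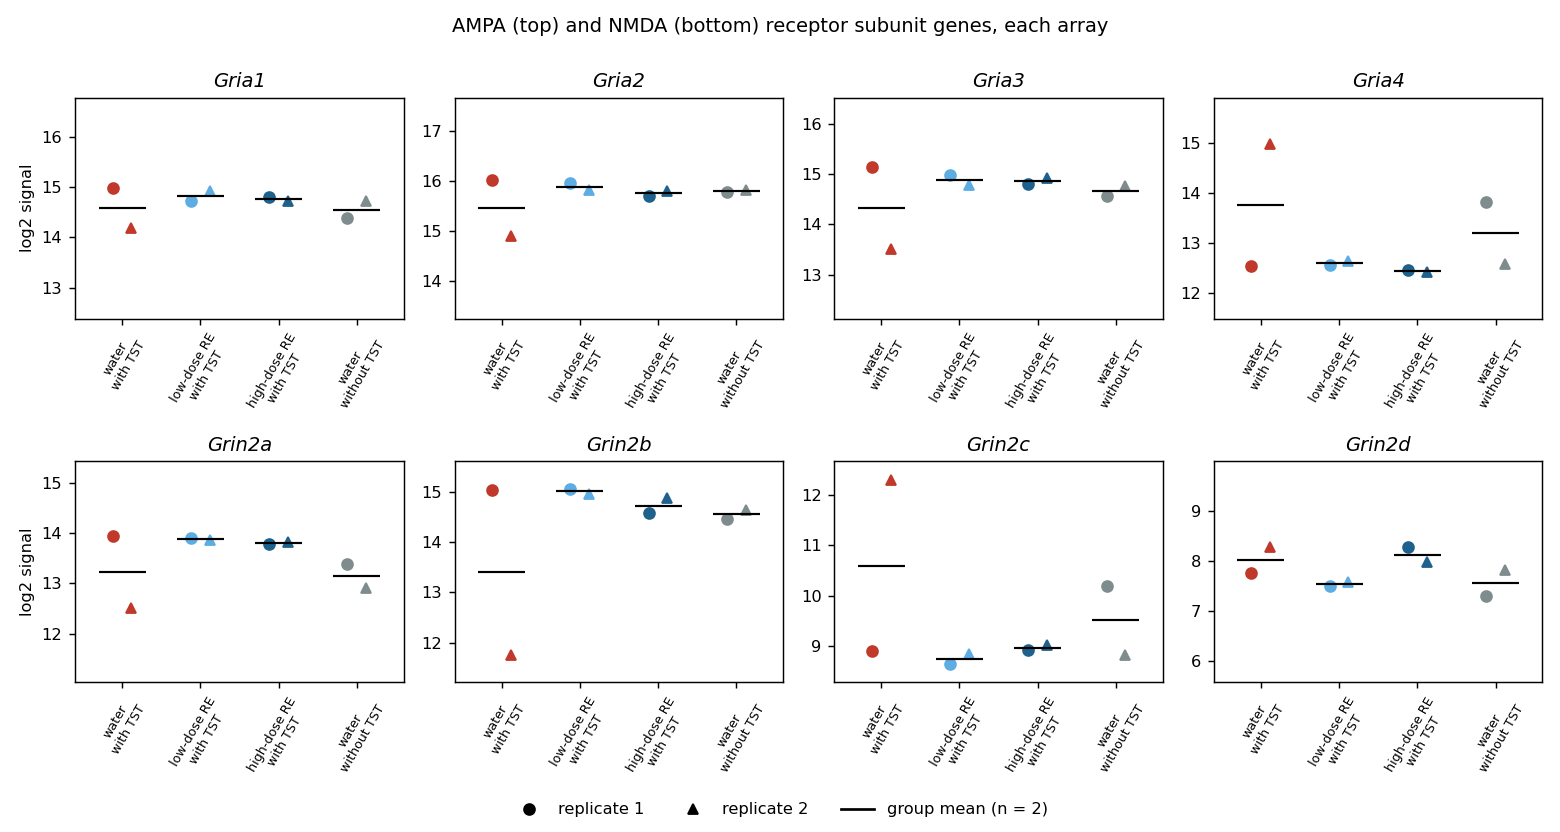
Log2 signal of the 4 AMPA subunit genes (top) and 4 NMDA subunit genes (bottom) on each of the 8 arrays, by group; circles are replicate 1, triangles replicate 2, lines the group means (n = 2), and every panel spans the same number of log2 units. In water with TST the replicates lie apart by 0.51 (Grin2d) to 3.42 (Grin2c), while the RE arrays of a group lie within 0.30 of each other.

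**Figure D2:**
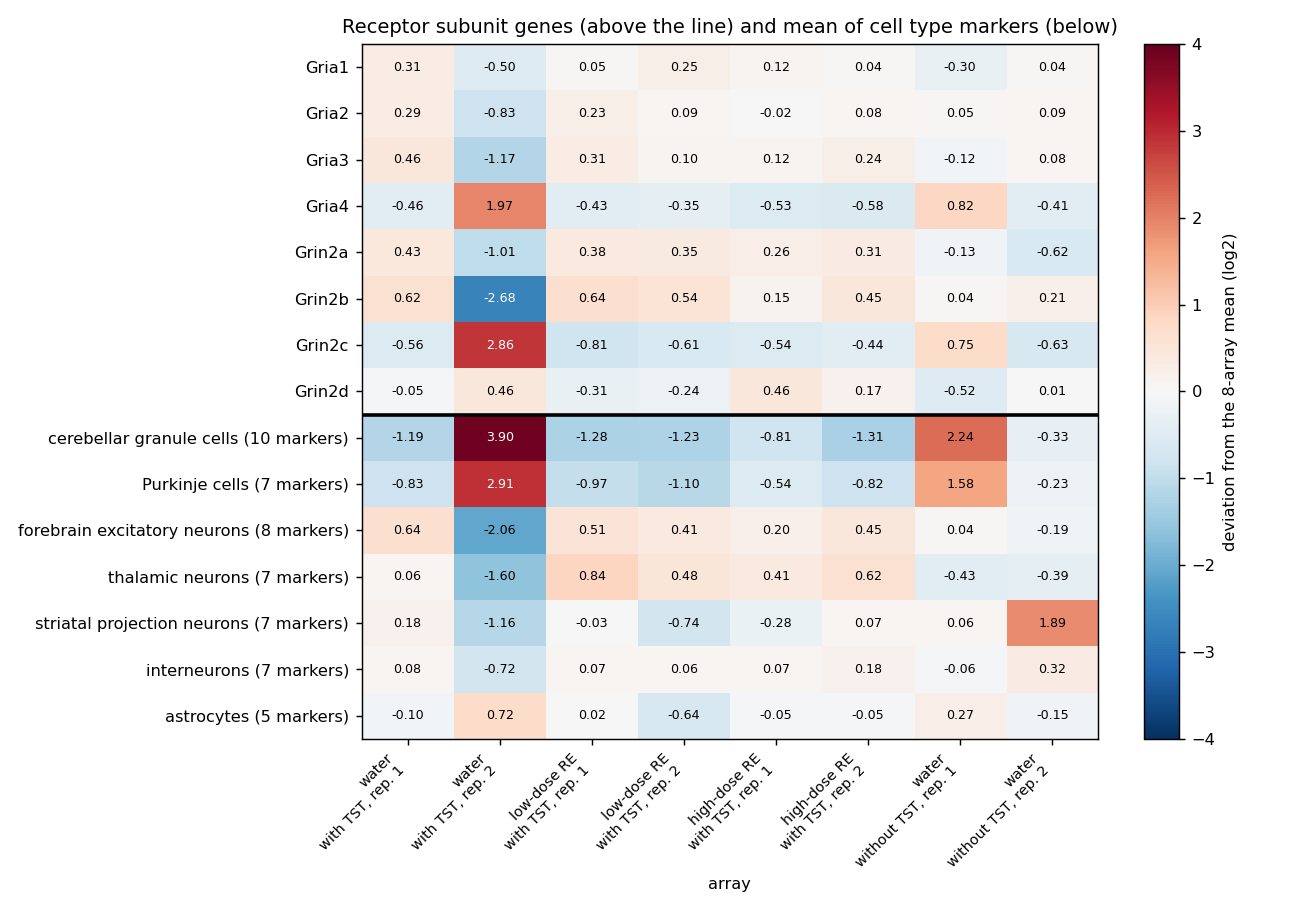
Deviation of each subunit gene (above the line) and of the mean of each marker list (below it) from the 8-array mean, in log2 units, on each array; red is higher and blue is lower. Grin2c and Gria4 are high on the 2 arrays that are high in granule cell and Purkinje cell markers, and Grin2b is lowest on water with TST replicate 2, at -2.68.

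As averages, the AMPA genes kept a nearly constant signal against the NMDA genes, while single genes of both types moved in opposite directions. The mean of the 4 AMPA genes minus the mean of the 4 GluN2 genes was 3.26 and 3.18 in water with TST, 3.29 and 3.23 with low-dose RE, 3.06 and 3.04 with high-dose RE, and 3.30 and 3.43 in water without TST. The 2 high-dose arrays were the lowest and water without TST replicate 2 the highest. Over all 8 arrays the spread was smaller than that of every gene in the sums. Without the 2 arrays with high cerebellar markers this no longer held. The balance still ran from 3.04 to 3.43, while the ranges of single genes lay between 0.23 (Gria4) and 1.05 (Grin2a). On water with TST replicate 2 the deviation was -0.0431, since Gria4 and Grin2c were high where Gria3, Grin2a and Grin2b were low.

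Within each receptor type the balance moved more. Among the AMPA genes, Gria4 minus Gria2 was -3.48 and 0.07 in water with TST, and -3.39 and -3.17 with low-dose RE. It was -3.24 and -3.39 with high-dose RE, and -1.96 and -3.23 in water without TST. Grin2b minus Grin2a was 1.10 and -0.76 in water with TST, 1.17 and 1.10 with low-dose RE, 0.80 and 1.05 with high-dose RE, and 1.08 and 1.74 in water without TST. Against its mean over all 8 arrays this difference was shifted by -1.67 on water with TST replicate 2 and by 0.83 on water without TST replicate 2, and by -0.11 to 0.26 on the other 6 arrays. Grin2c minus Grin2b was -6.16 and 0.56 in water with TST, -6.43 and -6.13 with low-dose RE, -5.67 and -5.87 with high-dose RE, and -4.27 and -5.82 in water without TST. The 2 arrays with high cerebellar markers had the 2 highest values. No test was made of these differences between genes.

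**Figure D3:**
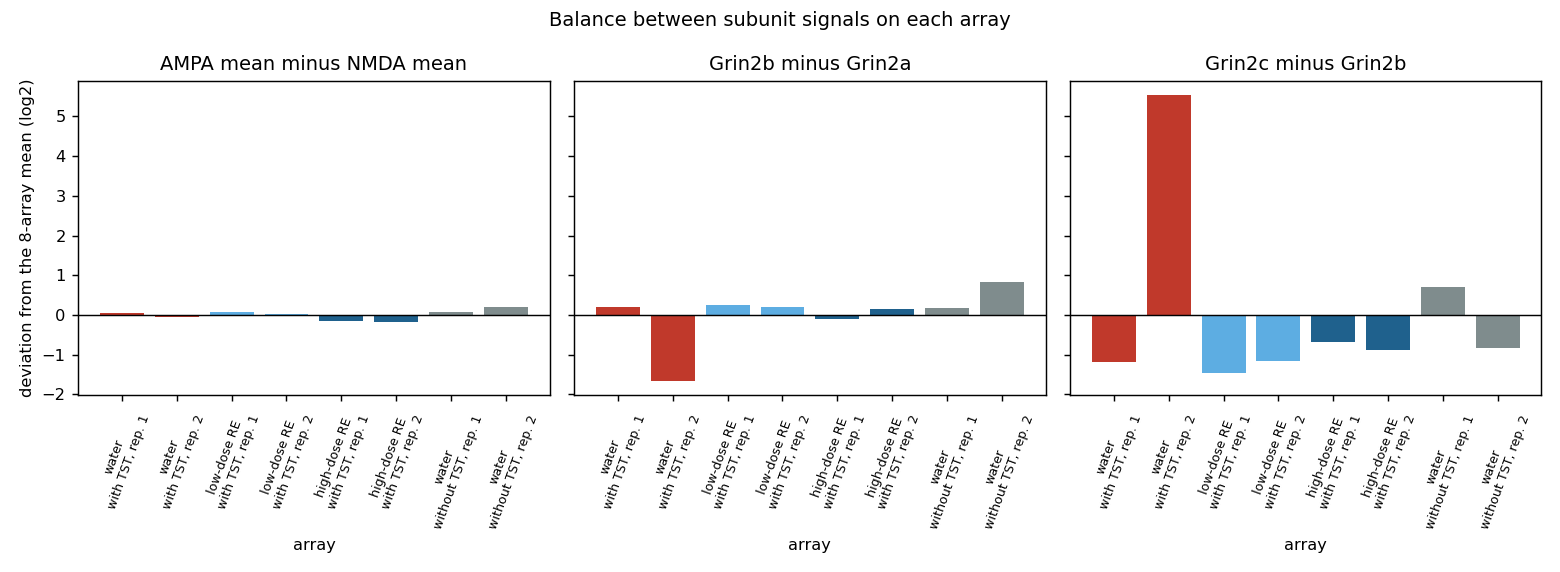
Deviation from the 8-array mean, in log2 units, of the AMPA mean minus the NMDA mean (left), Grin2b minus Grin2a (middle) and Grin2c minus Grin2b (right); each bar is 1 array and colours mark the groups. The AMPA against NMDA bars stay between -0.181 and 0.204, while Grin2c minus Grin2b reaches 5.53 on water with TST replicate 2.

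The effect of the stressor was asked by setting water with TST against water without TST. None of the 8 genes passed limma's test: 0 passed an adjusted p under 0.05, 0 an unadjusted p under 0.05, and 0 the study's own threshold, which asks for a fold of more than 1.2 (a log2 difference of 0.263) together with an unadjusted p under 0.05. Of all rows, 2.55% passed that threshold. Grin2b averaged 13.40 ± 2.33 in water with TST and 14.56 ± 0.12 in water without TST (SD, n = 2 each), a log2 difference of -1.155 (SE 0.841). Grin2c averaged 10.60 ± 2.42 in water with TST and 9.51 ± 0.98 in water without TST, a difference of 1.09 (SE 0.931). The smallest error was that of Grin2d, at 0.46 (SE 0.285, 95% interval -0.194 to 1.11). Groups overlapped for all 8 genes, where 27.5% of rows had groups that did not.

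Which of the water with TST arrays was kept decided these values. Without replicate 2 of that group, Grin2b was at 0.495 and Grin2c at -0.62, opposite in sign to the values from all arrays. Grin2a was then at 0.805 (SE 0.293) and alone passed the study's threshold, though its adjusted p by limma was 0.998, and 3.29% of rows passed. Without both arrays with high cerebellar markers, Grin2a was at 1.05 (SE 0.312), still past that threshold with an adjusted p by limma of 0.998, while 2.72% of rows passed, and Grin2b, Grin2c and Gria4 were at 0.41, 0.07 and -0.05. Each water group is then a single array that is assumed to vary like the RE groups. Without replicate 1 instead, 5 of the 8 passed the threshold, where 16.7% of rows did. Of these, Grin2b at -2.805 and Grin2c at 2.80 had adjusted p = 0.00421 and 0.0345 by limma, where 2.31% of rows passed the adjusted test.

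Low-dose RE was next set against water, both with TST. By limma 0 of 8 genes passed the adjusted test, an unadjusted p under 0.05 or the study's threshold, which 3.54% of rows passed. Grin2c averaged 8.74 ± 0.14 with low-dose RE and 10.60 ± 2.42 in water with TST (SD, n = 2 each), a difference of -1.86 (SE 0.931, 95% interval -3.99 to 0.272). Grin2b averaged 15.02 ± 0.07 with low-dose RE and 13.40 ± 2.33 in water with TST, a difference of 1.62 (SE 0.841). Gria4 was at -1.145 (SE 0.701) and Grin2a at 0.655 (SE 0.428). The AMPA genes Gria1, Gria2 and Gria3 were between 0.245 and 0.56, with SEs of 0.305 to 0.458. Arrays of the groups did not overlap for 2 genes, Grin2c and Grin2d (Grin2d at -0.48, SE 0.285), beside 25.0% of all rows.

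Replicate 2 of water with TST carried these differences too. Without it, the differences of the 8 genes from water with TST replicate 1 lay between -0.255 and 0.07, with Grin2c at -0.15 and Grin2b at -0.03, and 0 passed, where 3.49% of rows did. Without both arrays with high cerebellar markers 0 passed as well, where 3.04% of rows did. With replicate 2 as the only array of its group, all 8 genes passed the study's threshold, where 17.0% of rows did, and 5 had an adjusted p under 0.05 by limma, where 4.31% of rows did. Grin2b was then at 3.27 and Grin2c at -3.57, with the spread of water with TST taken from the other groups.

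High-dose RE against water with TST gave the same kind of values from the same control arrays, so it is no independent repeat. By limma 0 of 8 genes passed the adjusted test, an unadjusted p under 0.05 or the study's threshold, which 3.17% of rows passed. Grin2c averaged 8.96 ± 0.07 with high-dose RE and 10.60 ± 2.42 in water with TST, a difference of -1.64 (SE 0.931). Grin2b averaged 14.73 ± 0.21 with high-dose RE and 13.40 ± 2.33 in water with TST, a difference of 1.33 (SE 0.841). Gria4, at -1.31 (SE 0.701), was the one gene whose groups did not overlap, where 30.5% of rows did not. Without water with TST replicate 2 the 8 differences lay between -0.32 and 0.365 and 0 passed, where 3.09% of rows did. Without both arrays with high cerebellar markers 0 passed, where 2.81% of rows did. Without replicate 1, 6 genes passed the study's threshold, where 17.0% of rows did, and 4 passed the adjusted test, where 4.18% of rows did.

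Both doses were compared directly, which uses neither water group except for the shared estimate of spread. By limma 0 of 8 genes passed the adjusted test, an unadjusted p under 0.05 or the study's threshold, which 1.91% of rows passed. Grin2d, the gene nearest to it, averaged 8.13 ± 0.21 with high-dose RE and 7.54 ± 0.05 with low-dose RE (SD, n = 2 each), a difference of 0.59 (SE 0.285, 95% interval -0.0641 to 1.24). With only the 4 RE arrays in the fit its SE was 0.235 and it passed the study's threshold, as did 2.39% of rows, but its adjusted p by limma was 0.998. The fit without both arrays with high cerebellar markers takes its spread from the same 4 arrays and gave the same values. Grin2d also passed when either water with TST array was left out, as did 2.87% of rows in each of these fits. The other 7 genes lay between -0.29 (Grin2b) and 0.22 (Grin2c). Arrays did not overlap between doses for 6 of the 8 genes, beside 26.6% of all rows: Grin2d and Grin2c were higher with the high dose, and Gria2, Gria4, Grin2a and Grin2b lower. Apart from Grin2d these were differences of at most 0.29 between arrays that repeated closely, and over the 4 RE arrays 7 of the 8 genes had a range below the median of all rows, 0.55.

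**Figure D4:**
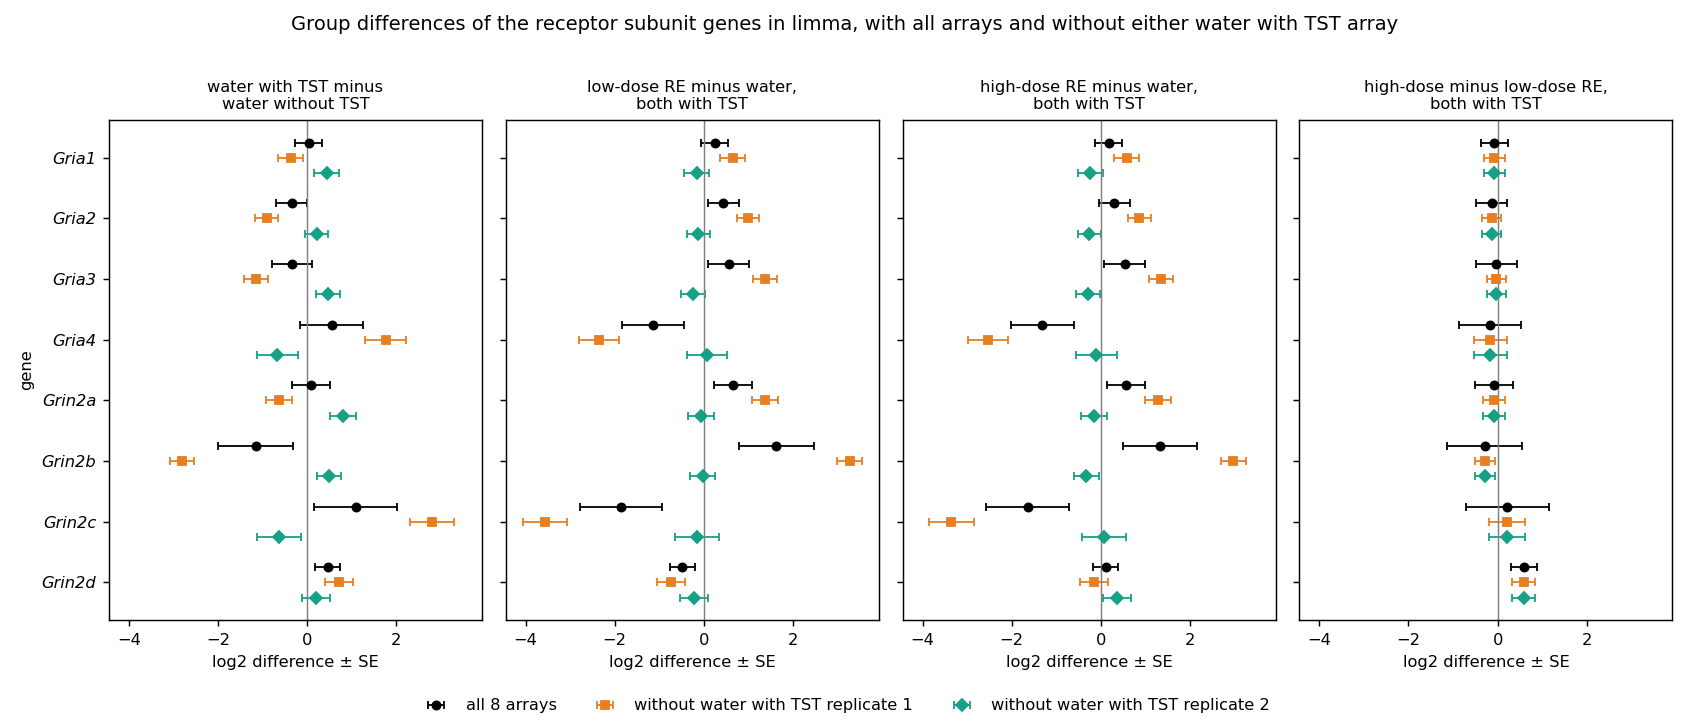
Log2 difference ± SE of each subunit gene in the 4 comparisons, from all 8 arrays (black), without water with TST replicate 1 (orange squares) and without water with TST replicate 2 (green diamonds). In the 3 comparisons that use water with TST, the orange and green values lie on either side of the black ones, for Grin2b with low-dose RE at 3.27 and -0.03; in the comparison of doses they coincide.

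Over all 4 groups together, limma's F-test called 0 of the 8 genes at an adjusted p under 0.05 and 0 at an unadjusted p under 0.05, which 1.82% of rows reached. The lowest p was 0.151 by limma's F-test, for Grin2d. Grin2a means were 13.23 in water with TST, 13.89 with low-dose RE, 13.81 with high-dose RE and 13.15 in water without TST. The 4 RE arrays, from 13.78 to 13.90, all lay above both arrays of water without TST. For Gria3 the RE arrays lay from 14.78 to 14.99 and water without TST at 14.56 and 14.76, so the nearest arrays were almost level. These 2 genes were picked after their values were seen. The share of all rows with such a pattern was not counted. The contrast of RE with water without TST was not among the 4 comparisons, and no test was made of it. Without water with TST replicate 1, 6 of the 8 genes had an unadjusted p under 0.05 by limma's F-test, where 12.6% of rows did. Without replicate 2 of that group 1 did, where 3.04% of rows did, and without both arrays with high cerebellar markers 1 did, where 2.27% of rows did.

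Other genes of the glutamate synapse were read from 6 lists. Of 8 other ionotropic subunit genes measured, of 9 listed, 0 passed the study's threshold in any of the 4 comparisons. The median differences of these 8 were -0.12 for TST, 0.218 for low-dose RE, 0.243 for high-dose RE and -0.03 between doses, against medians of all rows between -0.005 and 0.015. The list of AMPA receptor auxiliary proteins also held kainate receptor partner and synaptic adhesion genes. Of its 21 measured genes, 1 passed, in the low-dose comparison, where 3.54% of all rows did. This was Lrrtm1, a synaptic adhesion protein gene, with 8.46 and 7.63 with low-dose RE and 7.62 and 5.04 in water with TST, a difference of 1.715 (SE 0.703) that was 0.425 without water with TST replicate 2. Of 22 postsynaptic scaffold and kinase genes, 1 passed, in the high-dose comparison, where 3.17% of all rows did. It was Grip2, an AMPA receptor scaffold gene, with 6.90 and 7.11 with high-dose RE and 6.53 and 6.14 in water with TST, at 0.67 (SE 0.243), and 0.475 and not past it without that array.

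Of 9 glutamate transporter genes, 2 passed as lower with low-dose RE, where 357 of 22206 rows passed as lower and 3.54% passed in either direction. Slc1a6, the transporter gene of Purkinje cells, had 7.48 and 6.69 with low-dose RE and 7.64 and 11.81 in water with TST, a difference of -2.64 (SE 1.14) that shrank to -0.555 and missed the threshold once water with TST replicate 2 was left out. Slc1a3, the transporter gene of astrocytes and Bergmann glia, had 11.49 and 11.28 with low-dose RE and 11.91 and 12.59 in water with TST, at -0.865 (SE 0.272), and -0.525 and not past the threshold without that array. Of 4 genes of glutamate and D-serine metabolism, Srr, which makes the co-agonist D-serine, passed at 0.605 (SE 0.256) with low-dose RE, with 11.92 and 11.74 against 11.41 and 11.04 in water with TST, and was at 0.42, short of the threshold, when water with TST replicate 2 was left out. Of 5 metabotropic receptor genes 0 passed in any comparison. Of the 5 genes of these lists past the study's threshold, Lrrtm1, Grip2, Slc1a6, Slc1a3 and Srr, 0 passed limma's adjusted test. Lrrtm1, Slc1a6 and Srr kept the study's threshold in 1 of the 8 fits that left out an array, the one without water with TST replicate 1. Grip2 also lost it without high-dose RE replicate 2, and Slc1a3 without low-dose RE replicate 2.

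Water with TST replicate 2 also stood apart in these lists. Of the 8 receptor subunit genes, 3 lay more than 1 log2 unit lower on water with TST replicate 2 than the mean of the other 7 arrays, and 2 more than 1 higher, where 4.98% and 3.97% of all rows did. In the auxiliary protein list 10 of 21 genes were lower by more than 1 and 1 higher. The kainate receptor partner gene Neto1 was at 10.72 against 13.80 to 14.34 on the other 7, and the TARP gene Cacng3 at 12.20 against 14.33 to 15.05. Among scaffold and kinase genes 6 of 22 were lower and 1 higher: Camk2a, the kinase gene of forebrain excitatory synapses, was at 14.52 against 17.50 to 18.11, and Homer3, the Homer scaffold gene of Purkinje cells, at 11.35 against 7.73 to 9.23. Of 5 metabotropic receptor genes 4 were lower, with Grm5 at 10.04 against 12.25 to 12.88, and Grm4, known from cerebellar granule cells, was higher at 13.91 against 9.48 to 11.79. Grik2, a kainate subunit gene, was higher at 15.03 against 13.29 to 14.04. For Homer3, Grm4, Grik2, Slc1a6 and Dao, the highest of the other 7 arrays was water without TST replicate 1, the second array with high cerebellar markers. The genes named in this paragraph were chosen after their values were seen.

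**Figure D5:**
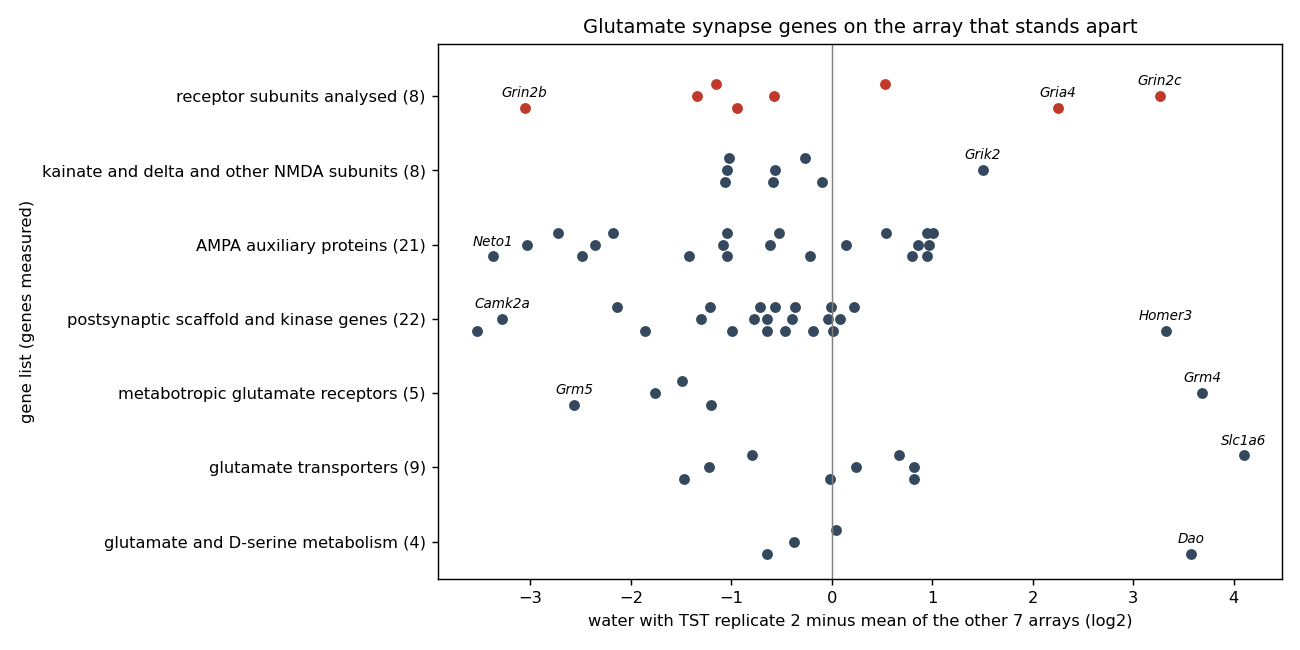
Log2 signal on water with TST replicate 2 minus the mean of the other 7 arrays for each measured gene of the receptor subunits (red) and of 6 lists of glutamate synapse genes (dark); each point is a gene and the vertical offset within a list only separates points. Grin2b (-3.06) and Camk2a (-3.28) lie far to the left, and Grin2c (3.27), Grm4 (3.69) and Slc1a6 (4.10) far to the right.

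The genes whose profile over the 8 arrays was closest to each varying subunit gene were found by the root mean square difference of deviations from the 8-array mean. For Grin2c these were Kcnk10 (0.133), Homer3 (0.138) and Rgs8 (0.147), and for Gria4 they were Marveld2 (0.107), Pik3r3 (0.116) and Lurap1 (0.1199). Rgs8, a gene of Purkinje cells, was at 14.39 on water with TST replicate 2 against a median of 11.02 on the other 7. For Grin2b they were Rasgrp1 (0.125), Ctxn1 (0.133) and Mal2 (0.145), each lower on water with TST replicate 2, as Rasgrp1 was at 12.43 against a median of 15.81. Grin2a was closest to Tshz2 (0.107), Cep170b (0.110) and Wipf3 (0.113), Gria2 to Ctnnd2 (0.0612), Mapk10 (0.0689) and Thra (0.0726), and Gria3 to Galntl6 (0.0665), Rab6b (0.0780) and Slitrk5 (0.0832). Among the subunit genes themselves the closest pair was Gria2 and Gria3 (0.168) and the farthest Grin2b and Grin2c (2.18). Gria1 and Grin2d, with ranges under 1 log2 unit, were left out of this search.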

How the data were processed

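RNA of 8 samples was hybridized to 1 Clariom S array each. Per the series' design text and the submitters' processing notes, the authors normalized the arrays in Transcriptome Analysis Console 4.0.1 by RMA, which summarises probe signals, and deposited log2 values. These were used as deposited, 22206 rows without missing values, from 2.76 to 19.79; 1359 exceed 16, the limit of a 16-bit scanner, so the scale may be stretched. They carry neither depth nor detection calls, so precision is limited by the number of arrays. In the platform annotation 19572 rows had 1 gene symbol, 0 had several and 2634 had none here.

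Group means were fitted to all 8 arrays with limma 3.58.1 in R 4.3.3 (lmFit, eBayes, two-sided, 4 residual and 4.30 prior degrees of freedom), and p-values were adjusted over all rows by Benjamini-Hochberg. The code was tested on simulated data. The genes, lists and alternatives were chosen with earlier results of these data known. Named genes were the listed subunits, up to 3 genes per list and comparison with the largest difference past the study's threshold, and the 3 closest profiles for each subunit gene with a range over 1 log2 unit; others named are marked as chosen after their values were seen. Cell type lists were read as means of deviations, without a test. Alternatives changed the model (replicate block, only the compared groups, trended and robust prior, the study's one-way analysis of variance). Others changed the rows (without the dimmest 25%), the scale (quantile normalization) or the arrays (each left out once, or both with high cerebellar markers).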

Additional observations from a re-analysis of the deposited data

How the results depend on the processing

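With all arrays, 0 of the 8 genes passed the study's threshold in each comparison. The count stayed 0 with the replicate block, trended and robust prior, filter on dim rows, quantile normalization and analysis of variance (0 also after adjustment). Each gene has 1 row, so averaging rows per gene would leave its values unchanged, and no such fit was made. Replicate numbers of the titles are not stated to mark a shared batch, and the replicate 2 minus replicate 1 differences of 2 groups correlated between -0.293 and 0.169 across rows. A fit of only the groups compared gave 1 gene between doses. Without both arrays with high cerebellar markers there was 1 for TST, 0 for either RE dose, 1 between doses and 1 by the F-test, which 2.27% of rows passed in that fit. With each array left out in turn, the count ranged from 0 to 5 for TST, 0 to 8 for low-dose RE, 0 to 6 for high-dose RE, 0 to 1 between doses and 0 to 6 by the F-test; the highest counts came without water with TST replicate 1, and between doses equally without replicate 2. Signs turned in 2 kinds of fit only. Without both arrays with high cerebellar markers, the turned log2 differences were for TST Gria2 0.2, Gria3 0.38, Gria4 -0.05, Grin2b 0.41 and Grin2d -0.06; for low-dose RE Gria1 -0.16, Gria2 -0.13, Gria3 -0.255, Gria4 0.07, Grin2a -0.065 and Grin2b -0.03; for high-dose RE Gria1 -0.23, Gria2 -0.26, Gria3 -0.28, Grin2a -0.145, Grin2b -0.32 and Grin2c 0.07. With 1 array left out, those that turned ranged for TST Gria1 from -0.37 to 0.44, Gria2 from -0.9 to 0.22, Gria3 from -1.15 to 0.48, Gria4 from -0.665 to 1.765, Grin2a from -0.635 to 0.805, Grin2b from -2.805 to 0.495 and Grin2c from -0.62 to 2.8; for low-dose RE Gria1 from -0.16 to 0.65, Gria2 from -0.13 to 0.99, Gria3 from -0.255 to 1.375, Gria4 from -2.36 to 0.07, Grin2a from -0.065 to 1.375 and Grin2b from -0.03 to 3.27; for high-dose RE Gria1 from -0.23 to 0.58, Gria2 from -0.26 to 0.86, Gria3 from -0.28 to 1.35, Grin2a from -0.145 to 1.295, Grin2b from -0.32 to 2.98, Grin2c from -3.35 to 0.07 and Grin2d from -0.145 to 0.365; between doses Gria1 from -0.17 to 0.03 and Gria3 from -0.13 to 0.08. The balance measures moved by less than the spread between replicates under quantile normalization. Over all rows, the counts past the study's threshold were 567 for TST, 787 for low-dose RE and 705 for high-dose RE with all arrays, against 3707, 3767 and 3785 without water with TST replicate 1. With 2 arrays a group, the 95% interval of Grin2c for low-dose RE spanned -3.99 to 0.272; what sets water with TST replicate 2 apart was not tested.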
